A study of Heterocephalus glaber with 6 samples.

Results

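The 100 loci described here were lower in epidermis of naked mole-rats after DMBA and after DMBA/TPA than in every acetone-treated control. They had the largest margin by 1 ratio, among loci that passed a minimum in the acetone libraries. Counts were turned into CPM, the count over the library total times 1000000. A locus was eligible with at least 2 CPM in all 4 acetone libraries, which 12420 of 33281 gene IDs reached. Eligible loci were ranked by a ratio, the lowest acetone CPM plus 0.5 over the highest treated CPM plus 0.5, and the top 100 were taken. All 8 libraries and the contrast of treated with acetone skin chose the loci, so their low treated values are a description and carry no test. The files pair no ID with a gene symbol, and 0 of the IDs matched the RefSeq gene table of assembly H.glaber_assembly_v1.0. The loci are therefore named by ID, with no gene name, sequence or function, and the labelled epidermis was not checked against marker genes.

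The DMBA/TPA group received 1 application of DMBA (1 mg/ml, 100 µl) on the back skin, then TPA (0.1 mg/ml) 2 times per week, and was harvested on day 46. The DMBA group received the single application alone and was harvested on day 10. The DMBA/TPA controls and the DMBA controls received acetone, the solvent of both agents, and the sources used here do not give the day on which they were harvested. All animals were wild type and 6 to 7 months old, and each group holds 2 libraries. Whether the libraries of a group are different animals is not stated in the labels, so the p-values cover the spread among libraries, which may be technical. The 4 acetone libraries belong to 2 GEO samples, and treatment and day of harvest changed together between the DMBA/TPA and DMBA groups.

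DMBA, 7,12-dimethylbenz[a]anthracene, is a polycyclic hydrocarbon that skin enzymes convert into metabolites that bind DNA. In mice it is the usual initiator of chemical skin carcinogenesis. TPA, a phorbol ester, activates protein kinase C and, applied repeatedly to mouse skin, drives proliferation and thickening of the epidermis. The epidermis is built mainly of keratinocytes, which divide in the basal layer and then differentiate outward into the cornified layer. The naked mole-rat is a long-lived rodent in which tumours are rarely seen.

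Total counts were 34537133 and 38124702 for DMBA/TPA, 30080934 and 35238753 for DMBA, 24337164 and 24153238 for the DMBA/TPA controls, and 22852358 and 27486387 for the DMBA controls. Every treated library was deeper than every acetone library. The treated libraries also held more of their counts in few loci: the 10 most abundant loci of a library took 36.2% and 41.3% in DMBA/TPA, 29.9% and 26.1% in DMBA, 17.5% and 17.9% in DMBA/TPA control libraries, and 21.2% and 22.2% in DMBA control libraries. A larger share for few loci lowers the CPM of the rest. The median eligible locus had a log2 ratio of treated over acetone mean CPM of -0.28, and the 100 loci had a median of -1.37. After TMM scaling in edgeR, which offsets such shifts, the medians were 0.03 for eligible loci and -1.08 for the 100 loci.

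Together the 100 loci held few of the counts. Their CPM summed to 778.7 and 671.9 in DMBA/TPA and to 774.3 and 846.9 in DMBA, against 2244 and 2417 in DMBA/TPA controls and 2450 and 1845 in DMBA controls. The median CPM over the 100 loci was 2.39 and 2.12 in DMBA/TPA and 2.74 and 2.78 in DMBA, against 8.65 and 8.07 in DMBA/TPA controls and 8.80 and 6.77 in DMBA controls. That is 0.0672% to 0.0847% of the counts of a treated library and 0.184% to 0.245% of those of an acetone library.

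**Figure D1:**
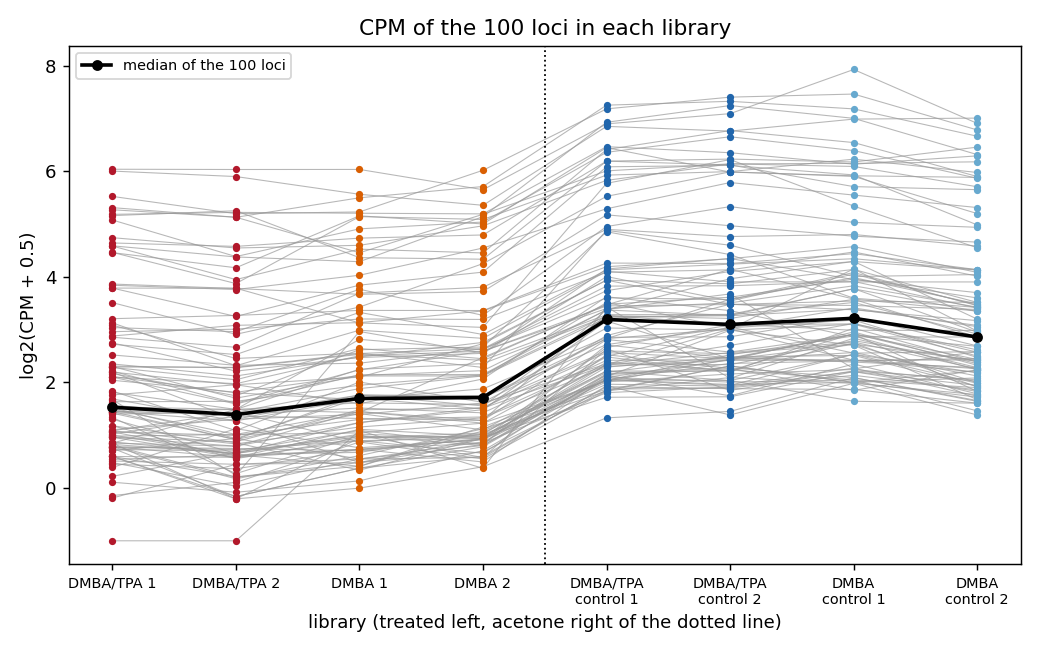
CPM of each of the 100 loci in the 8 libraries, as log2(CPM + 0.5), with a thin line per locus and a thick line for the median. The 4 treated libraries stand left of the dotted line and the 4 acetone libraries right of it, and every locus is lower in each treated library than in each acetone library, which the choice of the loci fixes.

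The margin that chose the loci was modest. The ratio reached 2.54 in the first locus and 1.64 in the last, with a median of 1.74, and 14 loci were past 2. Over all eligible loci the median ratio was 0.795, and 2800 of them, 22.5%, had a ratio above 1, meaning that the treated and acetone libraries did not overlap. The 5 loci just inside the limit had ratios of 1.638 to 1.646 and the 5 just outside 1.631 to 1.637, so the list has no gap at its end. Mean acetone CPM was 2.02 to 10.3 times mean treated CPM across the 100 loci, with a median of 2.99, while the median eligible locus had a value of 1.22.

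The loci were less abundant than the eligible loci at large. Their median acetone mean was 8.41 CPM, against 20.9 CPM over eligible loci, and 58 of the 100 averaged under 10 CPM in acetone, against 29.0% of the eligible loci. In acetone 29 loci averaged under 5 CPM, 29 between 5 and 10 CPM, 26 between 10 and 50 CPM and 16 at least 50 CPM. The median of acetone over treated mean was 3.18, 3.08, 2.73 and 2.63 in these 4 classes. The 0.5 CPM added in the rule asks a larger fold of a less abundant locus, so this order is in part built into the choice. The counts behind the low treated values were small, but only 1 locus had under 10 counts in any treated library. The lowest acetone count was 49, against 46 over the eligible loci, a floor that the minimum of 2 CPM sets.

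By ID format, 84 loci came from a transcript assembly and 16 had Ensembl gene IDs. This share of 16% was close to the 16.7% among eligible loci. The Ensembl-format loci had a median acetone mean of 5.79 CPM and a median fold, acetone over treated mean, of 3.18. The assembled loci had 9.005 CPM and a median fold of 2.92.

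MSTRG.13707 had the largest ratio, 2.54. It had 0.579 and 0.446 CPM in DMBA/TPA and 0.598 and 1.14 CPM in DMBA, against 3.66 and 4.64 CPM in DMBA/TPA controls and 4.81 and 4.98 CPM in DMBA controls. These values rest on 20, 17, 18 and 40 counts in the treated libraries and on 89 to 137 counts in the acetone libraries. The acetone mean was 6.56 times the treated mean. ENSHGLG00000008709, the second, was even within groups, with 1.22 and 1.18 CPM in DMBA/TPA and 1.13 and 1.42 CPM in DMBA, against 4.40 and 5.09 CPM in DMBA/TPA controls and 4.73 and 4.37 CPM in DMBA controls.

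MSTRG.1180 and MSTRG.1177, at ranks 3 and 4, differed in level but had a like pattern. MSTRG.1180 had 23.5 and 14.95 CPM in DMBA/TPA and 22.5 and 21.4 CPM in DMBA, against 84.8 and 108.8 CPM in DMBA/TPA controls and 92.9 and 59.3 CPM in DMBA controls. MSTRG.1177 had 2.37 and 1.42 CPM in DMBA/TPA and 2.76 and 2.33 CPM in DMBA, against 6.90 and 10.7 CPM in DMBA/TPA controls and 9.89 and 8.51 CPM in DMBA controls. In both loci the second DMBA/TPA library was the lowest and the second DMBA/TPA control the highest of all 8.

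The most abundant of the 100 was MSTRG.520, with 65.3 and 65.1 CPM in DMBA/TPA and 65.2 and 49.8 CPM in DMBA, against 119.0 and 136.1 CPM in DMBA/TPA controls and 243.5 and 119.7 CPM in DMBA controls. Its first DMBA control library stood far above the other acetone libraries. MSTRG.15263, the next, had 45.6 and 36.2 CPM in DMBA/TPA and 37.1 and 64.4 CPM in DMBA, against 145.0 and 169.2 CPM in DMBA/TPA controls and 176.2 and 109.8 CPM in DMBA controls. The acetone mean was 2.52 times the treated mean in MSTRG.520 and 3.27 times in MSTRG.15263. The 16 loci of at least 50 CPM in acetone had folds, acetone over treated mean, of 2.13 to 4.91.

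**Figure D2:**
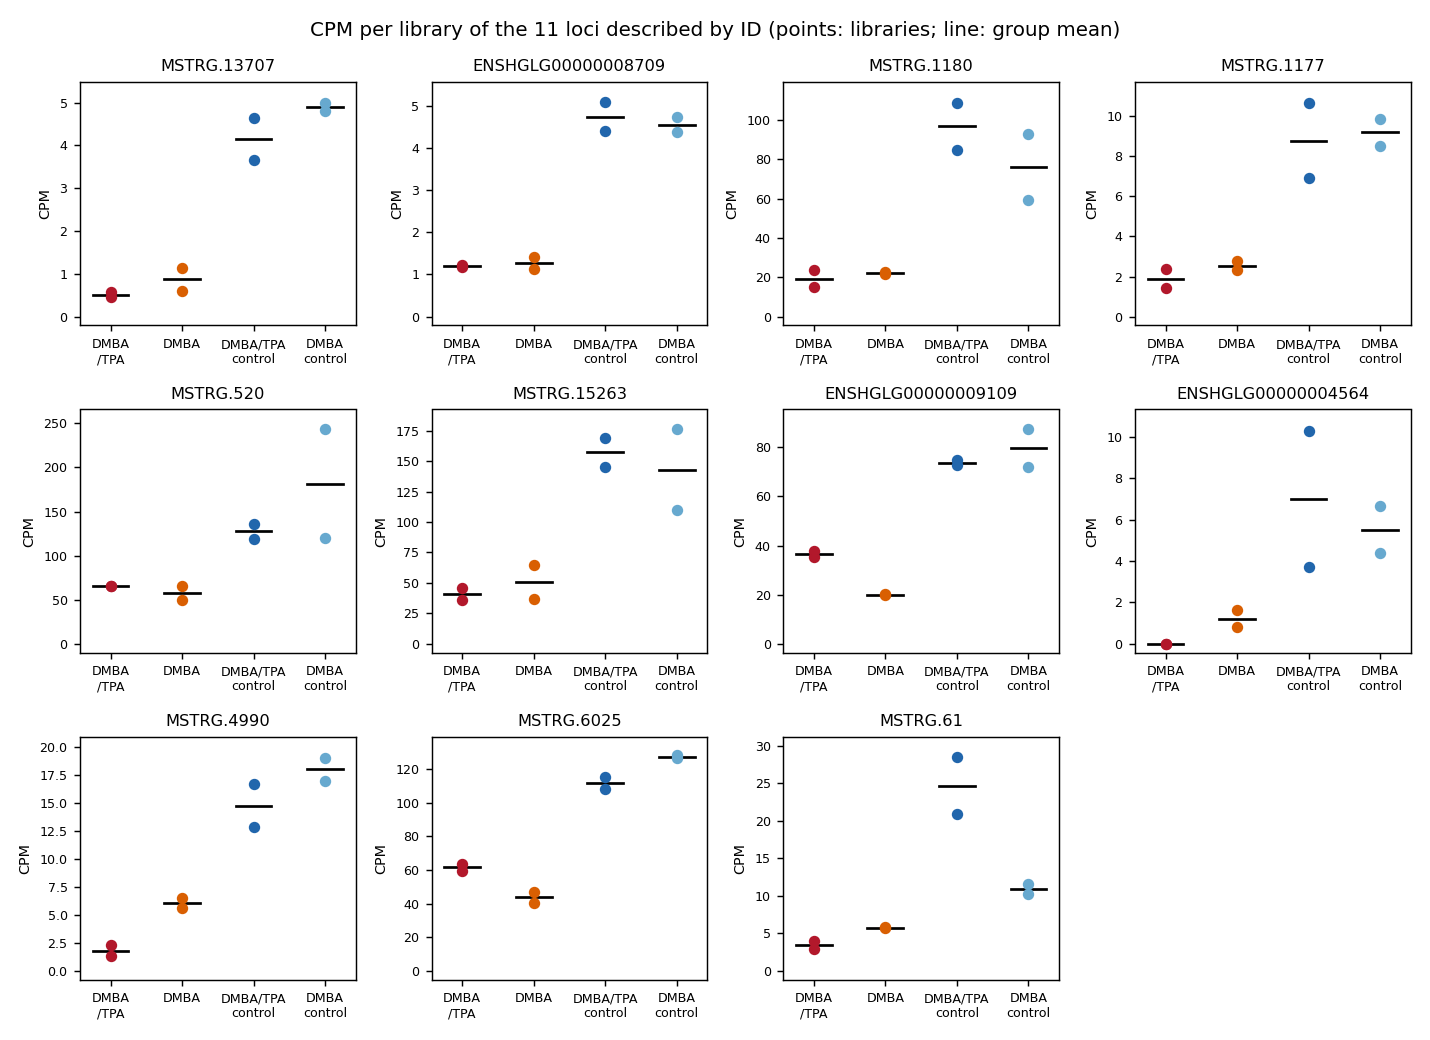
CPM per library of the 11 loci described by ID, with the groups along the horizontal axis, a point for each library and a line for the group mean. All treated points lie under all acetone points in each panel. Among loci called between the treated groups or for the difference between effects, ENSHGLG00000009109 and MSTRG.6025 were lowest in DMBA. ENSHGLG00000004564, MSTRG.4990 and MSTRG.61 were lowest in DMBA/TPA. By group mean, the 4 loci of first rank and MSTRG.15263 were also lowest in DMBA/TPA, and MSTRG.520 was lowest in DMBA.

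The fit across all features was edgeR's quasi-likelihood test with TMM scaling over the 4 groups. It tested 18422 loci, all 100 among them, and a locus was called at a Benjamini-Hochberg adjusted p below 0.05 over all of these. In DMBA/TPA against its controls 82 of the 100 loci were called lower, where 12.0% of all tested loci were. In DMBA against its controls 19 of the 100 were called lower, where 0.271% of all tested loci were. Because the rule used these contrasts, nothing is read from those counts. The 82 calls became 21 with the columns of each control sample summed and 25 to 86 with 1 library left out, fewest without the second DMBA/TPA library. The 19 calls became 0 with the control columns summed or with only the DMBA groups in the fit, and 1 to 26 with 1 library left out, fewest without the first DMBA/TPA or first DMBA control library. In these alternatives the share of all tested loci called lower moved the same way as the counts. The exception was DMBA without its first library, where the count fell and the share rose. The log2 fold changes had a median of -1.29 in DMBA/TPA and -1.19 in DMBA, against medians of -0.04 and 0.00 over all tested loci. In 63 loci both log2 fold changes were below -1, against 1.55% of the eligible loci and 3.47% of all tested loci. In 2 loci both were below -2, against 0.032% and 0.619%. The rule used these contrasts too, so nothing is read from these shares.

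Whether the loci differed between the treated groups is a contrast that the rule did not use, although taking the highest of the 4 treated values keeps both groups low. In DMBA/TPA against DMBA 3 of the 100 loci were called, where 2.35% of all tested loci were. By direction, 1 was higher, against 1.13% of all tested loci, and 2 were lower, against 1.22%. These shares of called loci are near the background. At an unadjusted p below 0.05 in edgeR there were 12 of the 100, against 21.8% of the eligible loci. The median log2 difference was -0.10 over the 100 loci and -0.02 over all tested loci. On the CPM scale DMBA/TPA had the lower mean in 82 loci, against 71.3% of the eligible loci. After TMM scaling the log2 difference was below 0 in 59 loci, against 50.2% of the eligible loci, so the count depends on the scaling.

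ENSHGLG00000009109 was the 1 locus whose DMBA/TPA level was called above its DMBA level. It had 35.3 and 37.7 CPM in DMBA/TPA and 20.1 and 19.7 CPM in DMBA, against 72.7 and 74.7 CPM in DMBA/TPA controls and 71.9 and 87.5 CPM in DMBA controls. The treated groups did not overlap, and both controls lay above them. Its log2 difference between the treated groups was 1.11 (standard error 0.182, edgeR adjusted p = 0.0209). The call was lost without either DMBA/TPA library, at adjusted p of 0.116 and 0.185 in edgeR, and without either DMBA/TPA control library, at 0.0507 for both.

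MSTRG.4990 had a DMBA/TPA level that was called below its DMBA level. It had 1.30 and 2.31 CPM in DMBA/TPA and 6.55 and 5.65 CPM in DMBA, against 12.9 and 16.7 CPM in DMBA/TPA controls and 19.1 and 17.0 CPM in DMBA controls. The 4 groups thus formed steps, with DMBA between DMBA/TPA and the acetone libraries. Its log2 difference between the treated groups was -1.503 (standard error 0.310, edgeR adjusted p = 0.0418). In edgeR the call was lost without any 1 library other than the second DMBA library, with the highest adjusted p, 0.222, without the first DMBA/TPA library.

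ENSHGLG00000004564 had 0 counts in both DMBA/TPA libraries, the only zeros among the 100 loci. In DMBA it had 49 and 28 counts, or 1.63 and 0.795 CPM. The DMBA/TPA controls held 10.3 and 3.73 CPM and the DMBA controls 6.65 and 4.37 CPM. A count of 0 allows up to 3 counts, or 0.0869 and 0.0787 CPM in the 2 DMBA/TPA libraries, a limit that covers counting error only. Against the mean of these floors the locus was at least 14.6-fold lower in DMBA/TPA than in DMBA, and at least 84.6-fold lower than in the DMBA/TPA controls. Both bounds rest on unequal libraries: with the second DMBA library alone the first was 9.60-fold, and with the second DMBA/TPA control library alone the second was 45.02-fold. The treated groups differed in edgeR's test (adjusted p = 0.0262). This call was lost without either DMBA/TPA library, at adjusted p of 0.164 and 0.175 in edgeR. None of the 3 calls between the treated groups held with those groups alone in the fit (edgeR adjusted p of 0.0811 to 0.150) or with the columns of each control sample summed (0.0696 to 0.144).

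The size of the drop in each regimen against its own controls was compared by the difference between the 2 effects. Of the 100 loci 4 were called, where 5.12% of all tested loci were. The difference was above 0, a smaller drop in DMBA/TPA, in 2 of them, against 2.07% of all tested loci, and below 0 in the other 2, against 3.05%. At an unadjusted p below 0.05 there were 14 of the 100, against 25.1% of the eligible loci. The median difference was -0.08 on the log2 scale for the 100 loci and 0.02 for all tested loci. The rule did not use this difference, but it asked for a margin in both regimens, which limits how far the 2 drops can differ. These shares are therefore in part built into the choice. For most of these loci no difference between the regimens was detectable with 2 libraries a group, which does not show that the drops were alike.

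**Figure D3:**
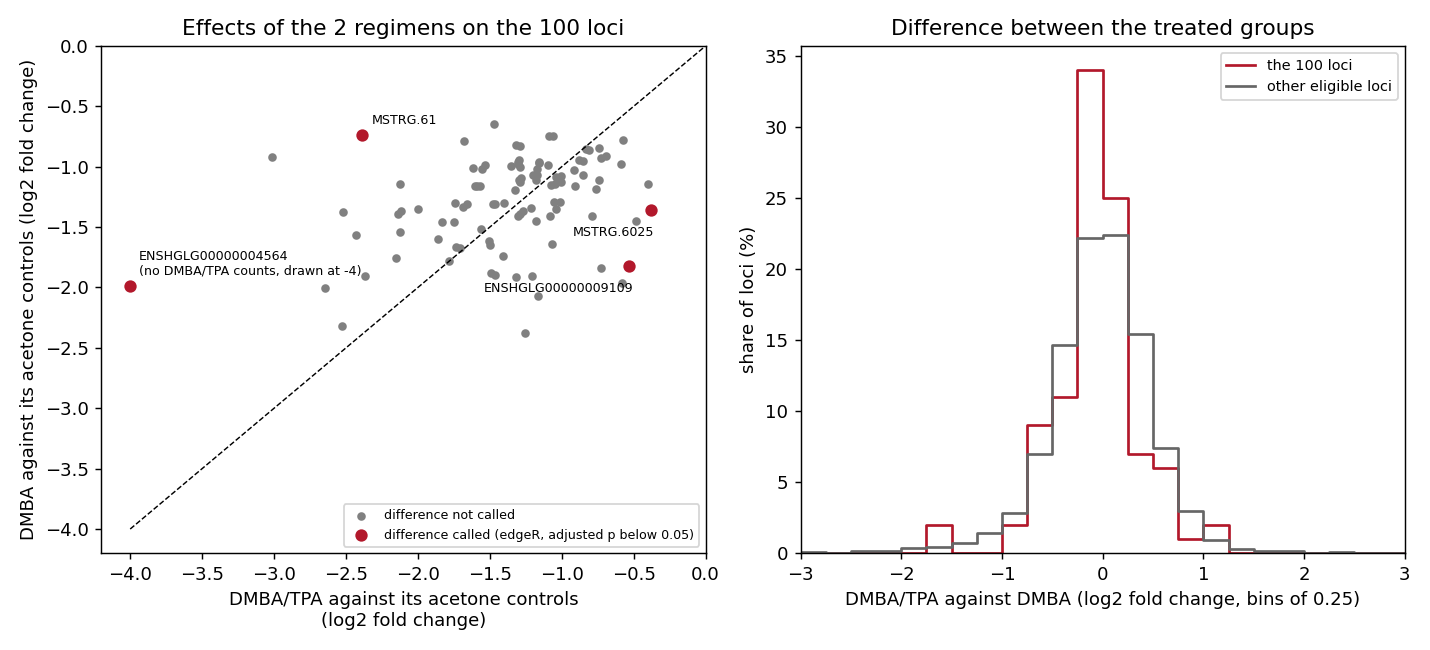
Left, log2 fold change against own acetone controls in DMBA/TPA (horizontal) and DMBA (vertical) for the 100 loci, with equal effects on the dashed line and the 4 loci of called difference in red. Right, log2 difference of DMBA/TPA against DMBA for the 100 loci and the other eligible loci, where both distributions centre near 0 and ENSHGLG00000004564 lies off the axis.

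ENSHGLG00000009109 and MSTRG.6025 were the loci with the smaller drop in DMBA/TPA. For ENSHGLG00000009109 the log2 fold change against its own controls was -0.53 in DMBA/TPA and -1.83 in DMBA, and these differed by 1.30 ± 0.254 (SE) in edgeR (adjusted p = 0.0238). MSTRG.6025 had 63.8 and 59.3 CPM in DMBA/TPA and 46.9 and 40.5 CPM in DMBA, against 115.1 and 108.1 CPM in DMBA/TPA controls and 126.7 and 128.4 CPM in DMBA controls. Its log2 fold changes were -0.38 in DMBA/TPA and -1.36 in DMBA, and these differed by 0.98 ± 0.231 (SE) in edgeR (adjusted p = 0.0438). This second call was lost without any 1 of the DMBA/TPA, DMBA/TPA control or DMBA control libraries (highest edgeR adjusted p = 0.169, without the second DMBA/TPA library), and with upper-quartile or total-count scaling, at 0.058 and 0.108. The first was lost without either DMBA/TPA library, either DMBA/TPA control library or the second DMBA control library (highest edgeR adjusted p = 0.121, without the second DMBA/TPA library).

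MSTRG.61 and ENSHGLG00000004564 had the larger drop in DMBA/TPA. MSTRG.61 had 4.00 and 2.86 CPM in DMBA/TPA and 5.65 and 5.87 CPM in DMBA, against 28.5 and 20.9 CPM in DMBA/TPA controls and 11.6 and 10.2 CPM in DMBA controls. Its log2 fold changes were -2.39 in DMBA/TPA and -0.74 in DMBA, and the DMBA/TPA effect minus the DMBA effect was -1.65 ± 0.347 (SE) in edgeR (adjusted p = 0.0317). The controls moved with this difference more than the treated groups did: the log2 difference was 1.12 between the control sets (edgeR adjusted p = 0.075) and -0.53 between the treated groups (edgeR adjusted p = 0.298). The call for MSTRG.61 was lost without either DMBA/TPA library, either DMBA control library or the first DMBA/TPA control library (highest edgeR adjusted p = 0.156, without the last of these). For ENSHGLG00000004564 the difference was also called (edgeR adjusted p = 0.0231), and it was lost without either DMBA/TPA library, either DMBA control library or the first DMBA/TPA control library (highest edgeR adjusted p = 0.105, without the second DMBA/TPA library). With the columns of each control sample summed, none of the 4 differences was called (edgeR adjusted p of 0.129 to 0.321).

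Between the DMBA/TPA controls and the DMBA controls 0 of the 100 loci were called in edgeR, where 0.711% of all tested loci were called. At an unadjusted p below 0.05 there were 6 of the 100, against 19.4% of the eligible loci. DESeq2 called 2, both higher in the DMBA/TPA controls, where it called 4.98% of all tested loci. Both counts of called loci are too small to be told from their background. The log2 differences ran between -0.84 and 1.12 with a median of -0.02. Ranking by the lowest of the 4 acetone values limits how far a locus can differ between the control sets.

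The ratio of a locus rests on 1 treated and 1 acetone library. The highest treated value came from the first and second DMBA/TPA library in 22 and 6 loci and from the first and second DMBA library in 25 and 47. Among eligible loci the shares of these libraries were 18.4%, 7.56%, 28.1% and 46.0%, close to those of the 100 loci. The lowest acetone value came from the first and second DMBA/TPA control library in 23 and 11 loci and from the first and second DMBA control library in 6 and 60. Here the eligible shares were 30.7%, 14.3%, 16.6% and 38.3%. The DMBA controls differed from each other more in these loci than in others. The second library was the higher one in 12 of the 100, against 37.4% of the eligible loci, and the median ratio of first to second was 1.30, against 1.08 over eligible loci. The median coefficient of variation between libraries of a group was 14.4% in DMBA/TPA, 11.8% in DMBA, 9.98% in DMBA/TPA controls and 20.7% in DMBA controls for the 100 loci. It was 9.47%, 16.4%, 9.05% and 12.3% in the same groups for eligible loci. The same libraries ranked the loci, and the 100 loci were less abundant than the eligible loci. These spreads within groups are therefore a description, and their cause was not tested.

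To read the pattern in a library that had no part in the choice, the rule was applied to 7 libraries and the resulting 100 loci were looked up in the eighth. A left-out treated library kept its side when it lay under the lowest acetone value, and a left-out acetone library when it lay above the highest treated value. All 100 loci did so in the first DMBA/TPA library, 99 in the second, 96 in the first DMBA library and 82 in the second DMBA library. For the acetone libraries the numbers were 98 and 100 in DMBA/TPA controls and 96 and 95 in DMBA controls. Among all eligible loci 36.1% to 61.3% kept their side. Among loci already separated in the other 7 libraries 62.2% to 98.0% did. The lowest of both ranges was the second DMBA library, where the 100 loci chosen without it had a median ratio of 2.29 in the other libraries and of 1.27 in the library itself. Each left-out library has a sister library of its own group among the 7, and each list is recomputed, so these counts carry no p.

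**Figure D4:**
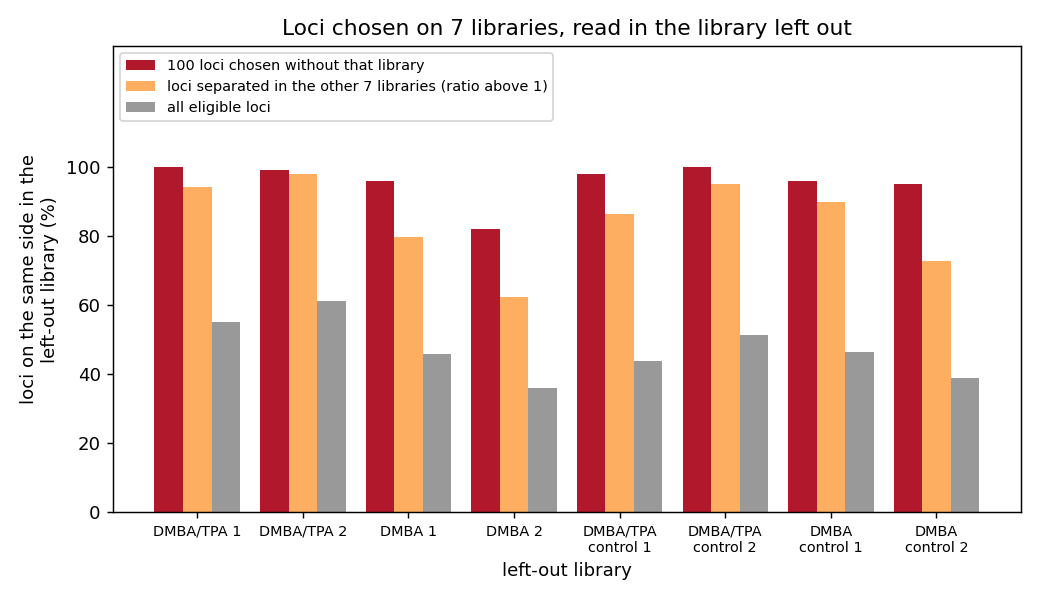
Percentage of loci that kept their side in a library left out of the choice, for each of the 8 libraries. Red bars show the 100 loci chosen on the other 7 libraries (82% to 100%), orange bars all loci separated in those 7, and grey bars all eligible loci (36.1% to 61.3%).

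Some of the assembled loci had nearly consecutive ID numbers. Of the 84 assembled loci 15 lay within 5 numbers of another one, in 5 pairs and 1 run of 5, a distance chosen after the values were seen. MSTRG.1177 and MSTRG.1180 were a pair, and MSTRG.518 and MSTRG.520 another, with MSTRG.519 the first locus outside the limit. The files give no positions, so whether such loci lie side by side or are pieces of 1 transcript was not tested, and they may not be separate members.

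The run of 5 was MSTRG.16105, MSTRG.16106, MSTRG.16107, MSTRG.16111 and MSTRG.16112. MSTRG.16106, the most abundant, had 3.79 and 2.52 CPM in DMBA/TPA and 3.92 and 3.94 CPM in DMBA, against 9.90 and 15.1 CPM in DMBA/TPA controls and 19.1 and 8.70 CPM in DMBA controls. All 5 were highest in acetone, and in each the second DMBA/TPA library was the lowest of the 8. The first DMBA control library exceeded the second in each, as in the list at large. The IDs on either side differed: MSTRG.16113 and MSTRG.16114 had ratios above 1, of 1.28 and 1.44, while MSTRG.16104 had a ratio of 0.764, with 3.43 CPM in the second DMBA library and 2.51 CPM in the first DMBA/TPA control. MSTRG.16108 to MSTRG.16110 were under the 2 CPM minimum.

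**Figure D5:**
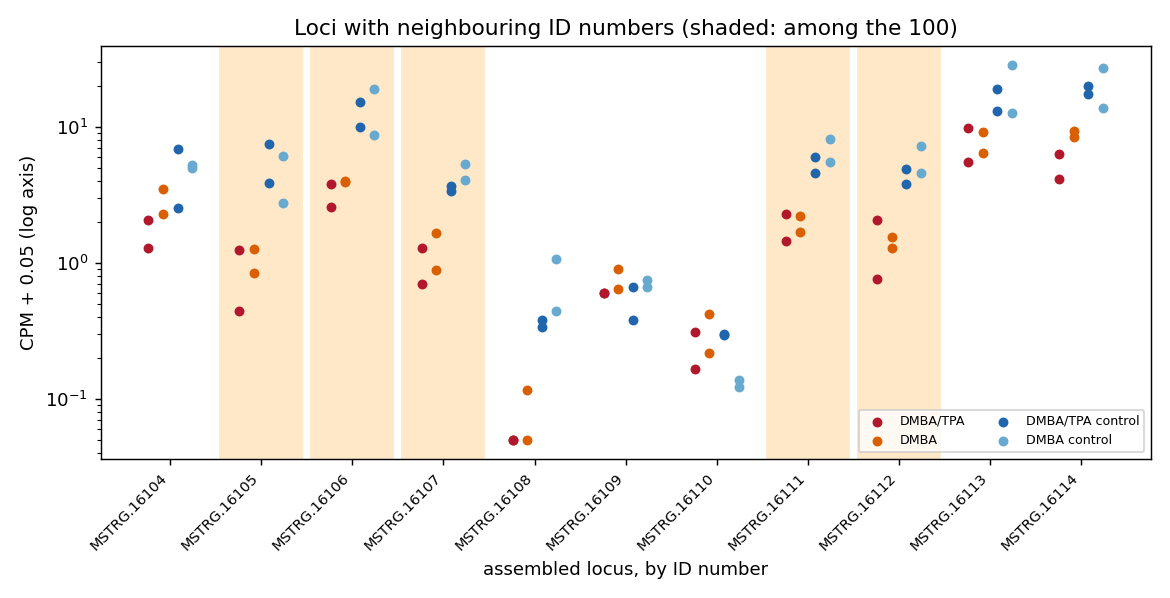
CPM plus 0.05 on a log axis for assembled loci MSTRG.16104 to MSTRG.16114 by ID number, with a point per library and the 5 loci among the 100 shaded. In the shaded loci all treated points lie under all acetone points, and the 3 loci between them stand near or below 1 CPM.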

How the data were processed

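Directional libraries were built from rRNA-depleted RNA of epidermis freed from the dermis, per the labels' protocols. The authors deposited raw counts per gene ID, and the totals differ between libraries. The submitters' processing notes name TopHat2, Bowtie2, cutadapt and FastQC, with no role for any. Genome build, annotation, counting tool and strand setting were not given in the sources used here, so reads of overlapping, antisense or near-identical loci may be split or shared. Each of the 8 count columns was taken as 1 library. Libraries of a group differed by more than sampling noise in a chi-square test over loci of summed count 20 or more.

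The members, lists and tests were chosen with earlier results of these data known. Counts were fitted in R 4.3.3 with edgeR 4.0.16 (filterByExpr, minimum count 10 and minimum total 15, TMM, robust quasi-likelihood fit, 4 groups, 4 residual degrees of freedom), which also ran on simulated counts for 18422 loci. In all, 5 contrasts were tested, and standard errors are the log2 fold change over the square root of F. DESeq2 1.42.0, other scalings, filters, groupings and ranking settings, a block for sample number and leaving out each library were alternatives. The loci shown by ID were the 4 of first rank, the 2 of highest acetone mean and up to 2 called loci of smallest p in each direction of the 3 contrasts the rule did not use. The run of consecutive IDs was added after its values were seen. Marker lists could not be used without gene symbols.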

Additional observations from a re-analysis of the deposited data

Results flagged for a closer look

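The effects of the 2 regimens, each against its own acetone controls, differed in 4 of the 100 loci by edgeR's test of that difference. Among all tested loci 5.12% were called and among the eligible loci 6.38%, and the count is too small to be told from either share. Each of the 4 calls was lost under 6 to 9 of 15 alternatives. MSTRG.61 had a difference of -1.65 and ENSHGLG00000004564 one of -8.52 on the log2 scale, DMBA/TPA effect minus DMBA effect. The second value comes from a group with no counts, depends on the prior count and is no measure of size. ENSHGLG00000009109 had a difference of 1.30 and MSTRG.6025 one of 0.98. With 2 libraries a group no single library could be tested for standing apart.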

How the results depend on the processing

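Of the 100 loci, 57 stayed in the top 100 with a minimum of 5 CPM and 31 when means replaced the lowest and highest values. With 1 library left out, 21 to 90 stayed, with 21 without the second DMBA library, 37 without the second DMBA control library and 63 without the first DMBA library. The other 5 settings kept 67 to 94, TMM-scaled CPM 67. The rule chose the 100 loci for separation. All stayed separated after TMM or upper-quartile scaling (lowest ratio 1.20 and 1.35), against 11.8% and 15.2% of eligible loci. Members called between DMBA/TPA and DMBA numbered 3, where 2.35% of all tested loci were called; they were 5 with total counts alone (4.15% of all loci), 6 with no low-count filter (3.08%), 8 with DESeq2 (7.31%), 5 with at least 1 CPM in 2 libraries (3.21%), and 0 in edgeR both with only these groups and with control columns summed (10 at an unadjusted p below 0.05 each), with 0 to 4 when 1 library was left out. Without the second DMBA/TPA library the count was 0 (12 unadjusted), and without the first, or either DMBA/TPA control library, 1. Members called for the difference between effects numbered 4, where 5.12% of all loci were called, 6 with DESeq2 on the 8 libraries (9.83%), 0 in edgeR with control columns summed (8 unadjusted, 0.247% of all loci called) and 0 to 5 with 1 library left out: 0 without the second DMBA/TPA library (9 unadjusted) or the first DMBA/TPA control library (7 unadjusted), 1 without the first DMBA/TPA or either DMBA control library, and 2 without the second DMBA/TPA control library. Between the control sets 2 members were called with no low-count filter (1.83% of all loci) and 2 with DESeq2 (4.98%), and 0 to 2 with 1 library left out, 2 without the first or second DMBA library (4.63% and 4.46%). Members called lower in DMBA numbered 45 with no low-count filter (0.647% of all loci), 57 with DESeq2 (1.84%), 0 in edgeR with only its groups (99 unadjusted) or control columns summed (96 unadjusted), and 1 to 26 with 1 library left out, against 19: 1 without the first DMBA/TPA or first DMBA control library, 3 without the second DMBA/TPA library, 4 without either DMBA/TPA control library and 11 without the second DMBA control library. In DMBA/TPA they numbered 21 with control columns summed (2.19% of all loci) and 25 to 86 with 1 library left out, against 82: 39 and 25 without the first and second DMBA/TPA library, and 32 and 41 without the first and second of its controls. Where a left-out library lowered a count, the share of all loci called fell too, except in DMBA without its first library. Nothing is read from these unadjusted counts, which have no such share. The cause of these moves was not tested.

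The correlation of the deviations between equal sample numbers of the treated groups was 0.00 across 18422 loci. With 2 libraries a group this cannot decide whether the sample numbers pair the samples. With sample number as a replicate block 4 members were called between the treated groups, where 2.01% of all loci were, 5 for the difference between effects (4.68%), 0 between the control sets (edgeR, 7 unadjusted, 0.581%), 13 lower in DMBA (0.217%) and 77 lower in DMBA/TPA (12.6%).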
